A study of Xenopus tropicalis with 4 samples.

Results

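Guidance cues are ligands and receptors through which cells attract, repel or sort from one another. The genes described here are those of the ephrins, Eph receptors, semaphorins, plexins, neuropilins, slits, robos, netrins and their receptors, repulsive guidance molecules (RGMs) and FLRT adhesion proteins. The families were chosen with earlier results of these data known. Within them, membership went by gene symbol, and 71 of the 28850 genes in the files matched. One match, unc50, has only the spelling in common with the Unc5 receptors and is known as a Golgi membrane protein. It was kept in the counts and is named where it bears on them.

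Messenger RNA was sequenced from animal cap explants, the prospective ectoderm, of Xenopus tropicalis gastrulae at Nieuwkoop-Faber stage 10.5. Wild-type embryos were injected at the 1-cell stage with 22.5 ng of a Foxh1 morpholino (Foxh1 MO) or of a standard control morpholino (control MO), and were kept at 25 °C. Each group held 2 libraries, called here Foxh1 MO 1 and 2 and control MO 1 and 2. Foxh1 is a forkhead factor that works with Smad2 downstream of Nodal signals, and the comparison asks which ectodermal transcripts differ when it is targeted. The labels name neither the number of embryos behind a library nor their clutches. Each p-value therefore rests on the spread of these 4 samples alone, and that spread may be of technical origin. For each gene the test also draws on the spread of the other tested genes. By degrees of freedom that shared part (median 10.5) outweighs the gene's own (2).

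Expected counts summed to between 25632619 and 29800530 per library. A morpholino acts on translation or splicing, so the level of its own target transcript is no measure of depletion. The foxh1 transcript had 264 and 174 CPM (read counts scaled to library size by TMM) in Foxh1 MO 1 and 2, against 79.3 and 71.2 CPM in control MO 1 and 2. This transcript rose 2.91-fold in Foxh1 MO (log2 fold change 1.54, edgeR adjusted p = 0.000431). The ectoderm markers were present in every library: 11 genes summed to 3725 and 4115 TPM (a level corrected for transcript length) in Foxh1 MO, against 3510 and 3260 TPM in control MO. Of these 11 genes, 6 rose and 2 fell (foxi2 and krt12.4). Markers of mesoderm summed to 12.6 and 14.2 TPM in Foxh1 MO and to 16.6 and 20.4 TPM in control MO. Those of endoderm summed to 13.4 and 15.5 TPM in Foxh1 MO, against 20.5 and 24.6 TPM in control MO. Of the 5 mesoderm markers tested, foxc2 fell (log2 fold change -1.33) and none rose. Of the 7 endoderm markers tested, sox17b.1 fell (log2 fold change -1.05) and none rose. The 8 neural ectoderm markers summed to 1326 and 1250 TPM in Foxh1 MO and to 1894 and 1796 TPM in control MO, and 4 of them fell. The organizer markers summed to 188 and 138 TPM in Foxh1 MO, against 119 and 107 TPM in control MO. Most of that sum is the homeobox gene not. Among those too low to test, gsc had 1 and 0 counts in Foxh1 MO and 16 and 8 in control MO. The counts of nog were 1 and 4 in Foxh1 MO and 7 and 9 in control MO. Those of cer1 went the other way, at 6 and 2 in Foxh1 MO and 1 and 0 in control MO. Of the 3 organizer markers tested, not rose, and chrd.1 and lhx1 fell (log2 fold changes of -3.69 and -1.73). The lists for neural crest and for endothelium and blood summed to at most 5.21 and 1.57 TPM in Foxh1 MO, and to at most 10.7 and 2.14 TPM in control MO. Only 2 of the 4 neural crest genes and 2 of the 5 endothelium and blood genes had enough counts to be tested. Of those tested, twist1, foxd3 and tal1 fell, and none rose. The part of these marker differences in the results below was not tested. In bulk RNA, fewer cells of a type and less RNA per cell cannot be told apart.

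Eph receptors are receptor tyrosine kinases that bind membrane-held ephrins on neighbouring cells, and signals pass into both cells. A-type ephrins are held by a lipid anchor, whereas B-type ephrins span the membrane. In the Xenopus gastrula, ephrins and Eph receptors keep ectoderm and mesoderm apart at Brachet's cleft. Semaphorins are secreted or membrane-bound ligands of plexins, and most secreted class 3 semaphorins also need neuropilins as co-receptors. Netrins act through Dcc, neogenin and Unc5 receptors, slits through Robo receptors, and RGMs through neogenin. In Xenopus embryos, Flrt3 and Unc5b act together with the GTPase Rnd1 in modulating cadherin adhesion.

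Animal caps held transcripts of nearly every one of these families. Of the 71 genes, 26 averaged at least 10 TPM in Foxh1 MO and likewise in control MO, 18 and 17 averaged 1 to 10 TPM, and 27 and 28 averaged under 1 TPM. In Foxh1 MO caps the highest was plxnb2, which encodes the semaphorin receptor plexin-B2 (87.4 ± 3.16 TPM, SD, n = 2), followed by plxna1 (64.4 ± 21.1 TPM) and rgma (61.1 ± 0.636 TPM). In control caps the highest were plxna1, which encodes plexin-A1 (93.4 ± 2.97 TPM), sema6d (91.2 ± 13.7 TPM) and plxnb2 (84.1 ± 16.4 TPM). The levels of these 3 genes in control caps lay within the spread of the libraries. By that order sema6d held rank 8 in Foxh1 MO caps and rank 2 in control caps. All 71 genes together summed to 1003 and 871 TPM in Foxh1 MO, against 1052 and 1009 TPM in control MO. With 2 libraries against 2, an exact two-sided permutation test cannot go below p = 0.333, so summed levels are given with no test.

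**Figure D1:**
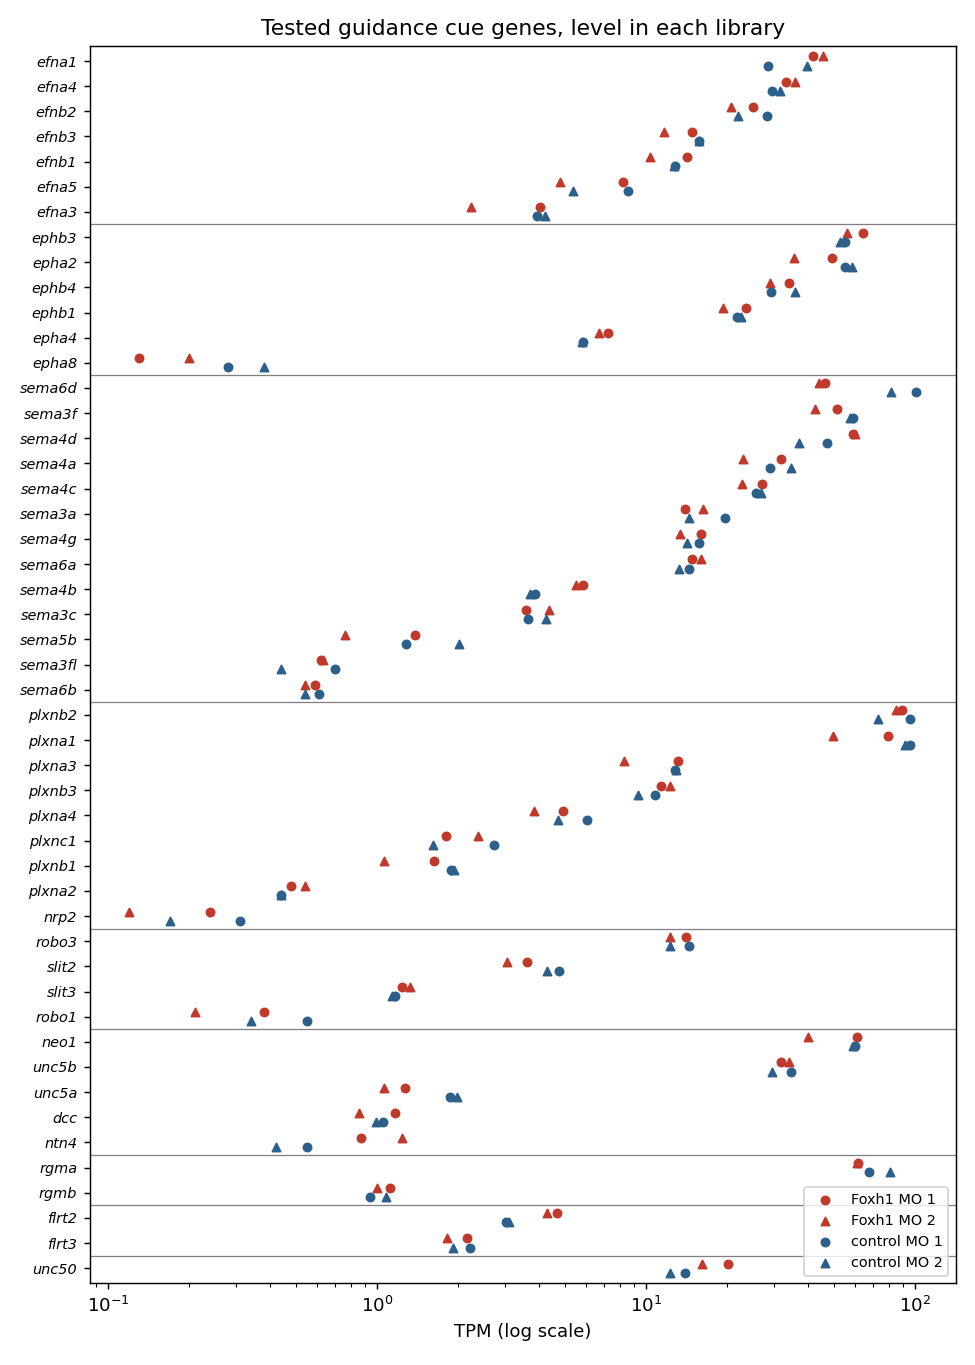
Level of each tested guidance cue gene in every library, in TPM on a log scale, with genes grouped by family (lines) and ordered by mean level. Red marks Foxh1 MO and blue control MO; circles are library 1 and triangles library 2. The sema6d points of Foxh1 MO (46.4 and 43.9 TPM) lie left of those of control MO (100.9 and 81.6 TPM).

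Of the 71 genes, 49 had enough counts to be tested, and 22 did not. Of the 49, 2 were higher and 1 was lower in Foxh1 MO than in control MO, and 46 did not pass (quasi-likelihood test of edgeR, with p adjusted by Benjamini-Hochberg across 13756 genes and a threshold of 0.05). That is 6.12% called, against 8.24% of all tested genes (4.17% higher and 4.07% lower), so the genes as a group were called at about the background share. Their median log2 fold change was -0.0084, beside -0.00019 for all tested genes, with 22 positive and 27 negative values. Groups did not overlap in CPM for 22 of the 49 (44.9%, 13 higher and 9 lower), against 50.8% of all tested genes (26.5% higher and 24.3% lower). At an unadjusted p under 0.05, 5 were higher and 5 lower, against 21.6% of all tested genes in either direction. The authors' deposited table lists 4 of the 49 genes at a false discovery rate under 0.05 (the called genes and plxna1), against 9.04% of its genes. All 3 called genes encode semaphorins. Whether semaphorins differ from the other families was not tested.

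The largest change among called genes was in sema6d, which encodes a membrane-bound semaphorin known in chick and mouse as a ligand of plexin-A1. It had 124 and 114 CPM in Foxh1 MO 1 and 2, against 243 and 216 CPM in control MO 1 and 2. Both Foxh1 MO libraries lay at about the same level, well under the lower control library. The gene fell 1.92-fold (log2 fold change -0.94, SE 0.14, edgeR adjusted p = 0.00141), with an approximate 95% interval of -1.24 to -0.64. Its share of all semaphorin TPM was 17.1% and 17.6% in Foxh1 MO, against 31.3% and 28.1% in control MO. With each library left out in turn, sema6d stayed lower, with log2 fold changes of -1.02 to -0.86 and adjusted p of at most 0.00457. It was called lower in all 13 alternative analyses. The files hold 6 transcript models of this gene, and its mean transcript length, weighted by abundance, was 5903 and 5954 bases in Foxh1 MO and 5806 and 5872 bases in control MO. This length differed between the groups by 1.54%.

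The genes sema4d and sema4b rose. Both encode class 4 semaphorins, which span the membrane, and Sema4d is a ligand of plexin-B1 and plexin-B2 in mammals. For sema4d, Foxh1 MO 1 and 2 had 112 and 109 CPM, against 82.0 and 70.1 CPM in control MO 1 and 2. The Foxh1 MO values nearly coincide and the control values are further apart, without overlap. The rise was 1.45-fold (log2 fold change 0.54, SE 0.14, edgeR adjusted p = 0.0333). At a lower level, sema4b had 15.5 and 14.1 CPM in Foxh1 MO, against 9.43 and 9.78 CPM in control MO, a 1.54-fold rise (log2 fold change 0.62, SE 0.16, edgeR adjusted p = 0.0316). Both calls lie close to the threshold. The sema4b call ended whichever library was left out (adjusted p 0.0515 to 0.0946), and the sema4d call ended without control MO 1 (0.0676) or control MO 2 (0.363). Neither gene changed sign in any of the 13 alternatives. The other class 4 genes, sema4a, sema4c and sema4g, did not pass, with log2 fold changes of -0.17, -0.03 and 0.02.

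**Figure D2:**
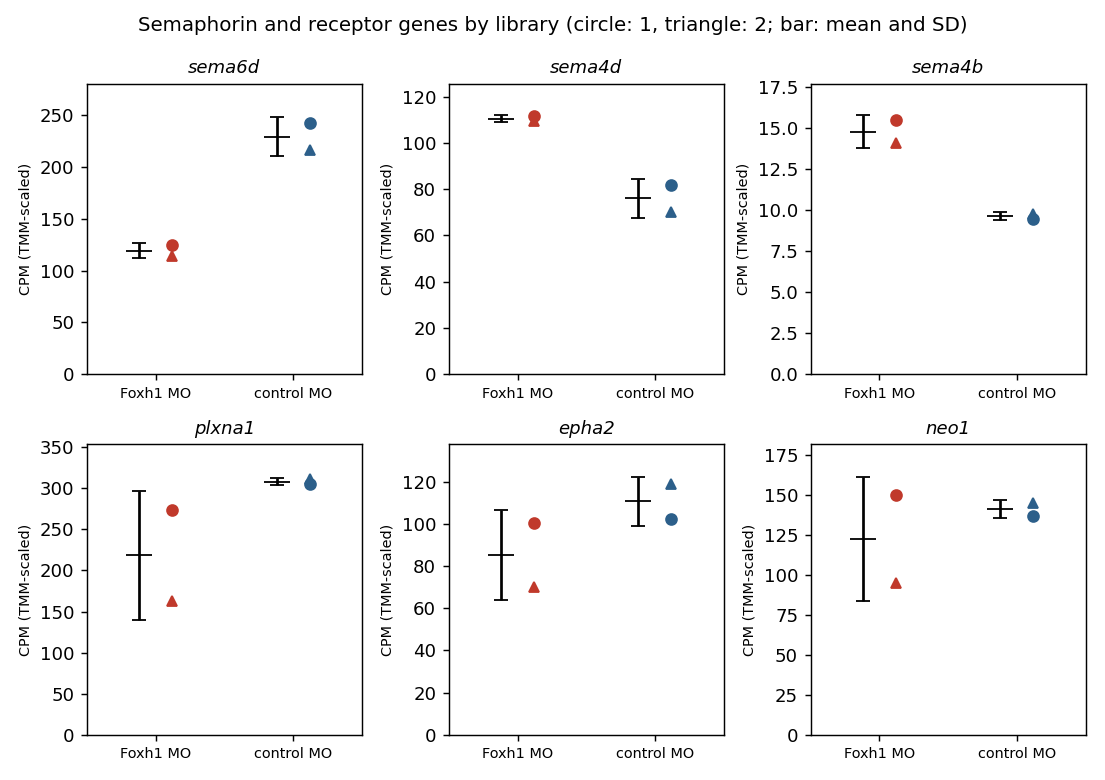
CPM of 3 semaphorin genes and 3 receptor genes in every library, with Foxh1 MO (red) left of control MO (blue), circles for library 1, triangles for library 2, and the mean and SD of each group in black. The sema6d, sema4d and sema4b groups are apart, while Foxh1 MO 2 lies far below Foxh1 MO 1 for plxna1, epha2 and neo1.

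Among the semaphorins that did not pass the test, sema3f and sema4a had the highest levels by TPM. The secreted semaphorin gene sema3f had 75.2 and 60.0 CPM in Foxh1 MO, against 78.9 and 84.1 CPM in control MO. Both Foxh1 MO values were lower, and the log2 fold change was -0.27 (interval -0.59 to 0.05, edgeR adjusted p = 0.331). For sema4a the values were 45.1 and 31.5 CPM in Foxh1 MO and 37.5 and 48.7 CPM in control MO, so the groups overlapped. The class 6 gene sema6a had 27.9 and 28.9 CPM in Foxh1 MO, against 24.8 and 24.9 CPM in control MO, without passing (log2 fold change 0.19, edgeR adjusted p = 0.478). Summed over each class, class 6 held 61.8 and 60.5 TPM in Foxh1 MO, against 116 and 95.3 TPM in control MO. Most of that sum was sema6d, with 46.4 and 43.9 TPM in Foxh1 MO and 100.9 and 81.6 TPM in control MO. The next most abundant, sema6a, was not lower, at 14.8 and 16.0 TPM in Foxh1 MO, against 14.4 and 13.25 TPM in control MO. Class 4 held 139 and 124 TPM in Foxh1 MO and 121 and 116 TPM in control MO, and class 3 held 69.7 and 63.9 TPM in Foxh1 MO, against 83.3 and 76.8 TPM in control MO. Of 18 semaphorin genes, 5 were too low to test, namely sema3b, sema3d, sema3e, sema6c and sema7a.

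The plexin genes encode the receptors of semaphorins. Among them, plxnd1 had 5 and 5 counts in Foxh1 MO, against 18 and 8 in control MO, too few to be tested. No tested plexin gene passed, and plxna1 came nearest. Its values were 274 and 163 CPM in Foxh1 MO 1 and 2, against 305 and 311 CPM in control MO 1 and 2. Only Foxh1 MO 2 was far below the controls. The log2 fold change was -0.50 (SE 0.20, interval -0.93 to -0.07, edgeR adjusted p = 0.160). It depended on that library: without Foxh1 MO 1 it was -0.91, and without Foxh1 MO 2 it was -0.17. The authors' deposited table lists plxna1 at a log2 fold change of -0.54 and a false discovery rate of 0.0355. In the alternative analyses it was called lower in 6 of 13. For plxnb2, the values were 291 and 267 CPM in Foxh1 MO and 284 and 235 CPM in control MO, with a log2 fold change of 0.10 (interval -0.21 to 0.41). The relative plxnb3 had 34.3 and 35.6 CPM in Foxh1 MO, against 29.9 and 28.1 CPM in control MO (log2 fold change 0.27, adjusted p = 0.287). Fold changes of the 9 tested plexin and neuropilin genes ran from -0.50 to 0.27 on the log2 scale. Neuropilin transcripts were close to absent: nrp2 had at most 27 counts, and nrp1 had 1 and 0 counts in Foxh1 MO, against 12 and 7 in control MO, too few to be tested.

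No ephrin or Eph receptor gene passed the test. Of 9 ephrin genes 7 were tested, with log2 fold changes of -0.32 to 0.38, and of 11 Eph receptor genes 6 were tested, with values of -0.96 to 0.23. The lowest of these values belongs to epha8, with 5 and 7 counts in Foxh1 MO and 11 and 15 in control MO (edgeR adjusted p = 0.366). The A-type ephrin gene efna1 had 20.8 and 22.1 CPM in Foxh1 MO, against 12.9 and 19.98 CPM in control MO. Control MO 1 stood apart from the other libraries here. The log2 fold change of 0.38 (interval -0.03 to 0.80, edgeR adjusted p = 0.278) was 0.73 without control MO 2 and 0.10 without control MO 1. The other abundant A-type gene, efna4, had 23.1 and 24.2 CPM in Foxh1 MO and 18.4 and 21.7 CPM in control MO (log2 fold change 0.24, adjusted p = 0.400). In the RefSeq gene order efna3 lies next to efna1. A further symbol, efna3-2, was too low to test, and reads shared between efna3 and efna3-2 could have been split by the counting. The B-type genes efnb1, efnb2 and efnb3, all overlapping between groups, had log2 fold changes of -0.01, -0.08 and -0.21.

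Among the receptors, epha2 and ephb3 were the most abundant. For epha2, Foxh1 MO 1 and 2 had 100.3 and 70.2 CPM, against 102 and 119 CPM in control MO 1 and 2. Foxh1 MO 1 lay just under the controls and Foxh1 MO 2 well under them (log2 fold change -0.38, interval -0.75 to -0.0016, edgeR adjusted p = 0.228). Without Foxh1 MO 1 the value was -0.65 and without Foxh1 MO 2 it was -0.15. For ephb3 the values were 126 and 106 CPM in Foxh1 MO, against 98.6 and 103 CPM in control MO, with a log2 fold change of 0.20 (interval -0.10 to 0.51, adjusted p = 0.462). The receptors ephb1 and ephb4 both had log2 fold changes of -0.01, with intervals of -0.34 to 0.32 and -0.37 to 0.36. Summed EphB levels were 122 and 104 TPM in Foxh1 MO and 106 and 111 TPM in control MO, while ephrin-B genes summed to 54.0 and 42.6 TPM in Foxh1 MO, against 56.8 and 50.3 TPM in control MO. The receptor genes epha3, epha5, epha6 and epha7 had at most 9 counts in any library. By contrast, epha4 had 465 and 375 counts in Foxh1 MO and 414 and 381 in control MO.

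**Figure D3:**
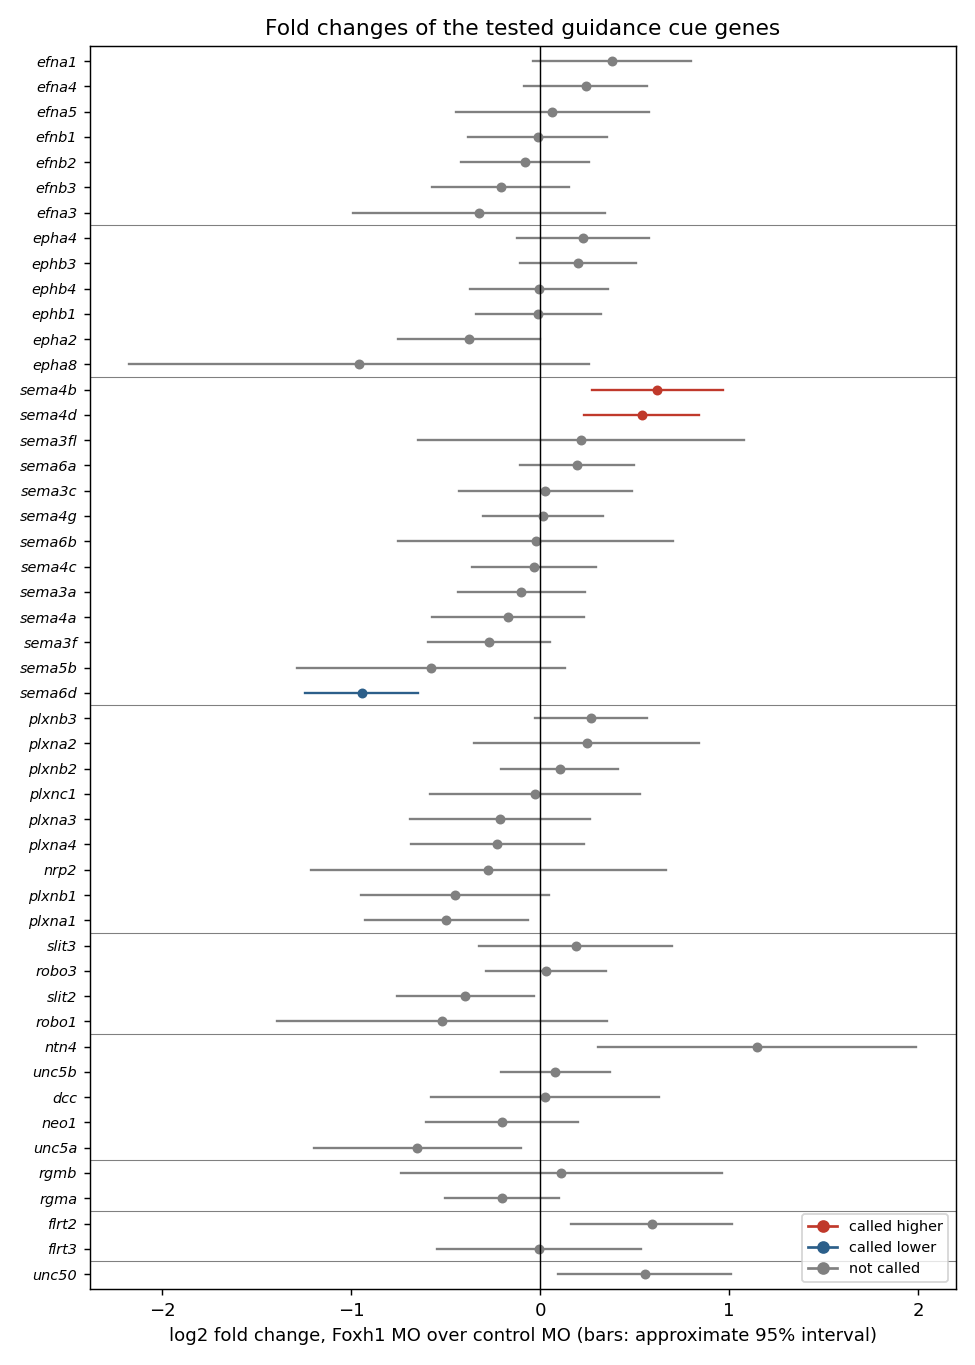
Log2 fold change of every tested guidance cue gene, Foxh1 MO over control MO, with approximate 95% intervals and genes grouped by family. The intervals of sema4b, sema4d (red, called higher) and sema6d (blue, called lower) exclude 0. Grey genes were not called, though the intervals of some of them, such as ntn4 and plxna1, also exclude 0. The intervals are not adjusted for the number of genes tested.

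Of the netrin receptor and RGM genes, neo1, unc5b and rgma had the highest levels, and no gene of these groups passed the test. The neogenin gene neo1 had 149.7 and 95.01 CPM in Foxh1 MO 1 and 2, against 137 and 145 CPM in control MO 1 and 2, so the controls lay between the Foxh1 MO libraries. Its log2 fold change was -0.20 (interval -0.61 to 0.20, edgeR adjusted p = 0.597). Without Foxh1 MO 1 it was -0.56, and without Foxh1 MO 2 it turned to 0.08. The neogenin ligand gene rgma, whose protein also acts as a BMP co-receptor, had 77.8 and 71.4 CPM in Foxh1 MO, against 80.9 and 90.8 CPM in control MO (log2 fold change -0.20, adjusted p = 0.453). The related rgmb had under 1 CPM in every library. For unc5b, values were 151 and 156 CPM in Foxh1 MO and 151 and 139 CPM in control MO (log2 fold change 0.08, interval -0.21 to 0.37). At a low level unc5a had 2.48 and 1.999 CPM in Foxh1 MO, against 3.28 and 3.76 CPM in control MO (log2 fold change -0.65, adjusted p = 0.148).

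The netrin gene ntn4, whose protein binds laminins of the basement membrane, had the largest fold change of all tested genes of these families. It had 30 and 40 counts in Foxh1 MO 1 and 2, against 20 and 15 counts in control MO 1 and 2, or 1.09 and 1.51 CPM in Foxh1 MO and 0.637 and 0.528 CPM in control MO. The groups did not overlap, but the difference did not pass (log2 fold change 1.15, interval 0.31 to 1.99, edgeR adjusted p = 0.0944). Of the 13 alternatives, it was called in 1, the limma test on log2(TPM + 1), with an adjusted p of 0.0431. The classical netrin gene ntn1 had 0 and 2 counts in Foxh1 MO and 0 and 0 in control MO, and its receptor gene dcc stood at 2.77 and 1.96 CPM in Foxh1 MO, against 2.29 and 2.36 CPM in control MO.

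Slit and Robo genes were low apart from robo3. That receptor gene had 35.1 and 29.4 CPM in Foxh1 MO, against 32.9 and 30.3 CPM in control MO, with a log2 fold change of 0.03 (interval -0.29 to 0.35). The ligand gene slit2 had 11.4 and 9.20 CPM in Foxh1 MO, against 13.7 and 13.4 CPM in control MO, without overlap but without passing (log2 fold change -0.39, interval -0.76 to -0.03, edgeR adjusted p = 0.190). No count of robo2 was found in any library.

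The FLRT genes encode leucine-rich repeat adhesion proteins that bind Unc5 receptors and latrophilins. The gene flrt2 had 7.12 and 6.30 CPM in Foxh1 MO, against 4.24 and 4.68 CPM in control MO. Both Foxh1 MO values were higher, and the difference did not pass (log2 fold change 0.59, interval 0.16 to 1.02, edgeR adjusted p = 0.0918). The gene flrt3 overlapped between groups, with 3.43 and 2.60 CPM in Foxh1 MO and 2.96 and 3.10 CPM in control MO. The unrelated unc50 had 6.68 and 5.24 CPM in Foxh1 MO, against 4.11 and 4.01 CPM in control MO (log2 fold change 0.55, adjusted p = 0.142).

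Several ligand and receptor genes differed between the 2 Foxh1 MO libraries by as much as between groups. Of the 49 tested genes, 9 were over 1.5-fold apart between Foxh1 MO 1 and 2 (log2 CPM with a prior count of 2), and all 9 were lower in Foxh1 MO 2. They were sema5b, efna3, robo1, nrp2, efna5, plxna1, plxna3, plxnb1 and neo1, by 1.57-fold to 1.85-fold. Between the control libraries 4 of the 49 were that far apart. Over all tested genes the share was 11.5% in the Foxh1 MO pair and 8.31% in the control pair. In the Foxh1 MO pair that was 1585 genes, of which 1094 were lower in Foxh1 MO 2, so most of them leaned the same way. Of the 49, 37 (75.5%) were lower in Foxh1 MO 2 than in Foxh1 MO 1, against 49.6% of all tested genes. The median log2 fold change of the 49 was -0.18 without Foxh1 MO 1 and 0.11 without Foxh1 MO 2, while the medians over all genes were -0.0021 and -0.011. Without Foxh1 MO 1, 30 of the 49 had a negative log2 fold change, against 50.3% of all genes. Without Foxh1 MO 2, 16 of the 49 did, against 51.5% of all genes.

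**Figure D4:**
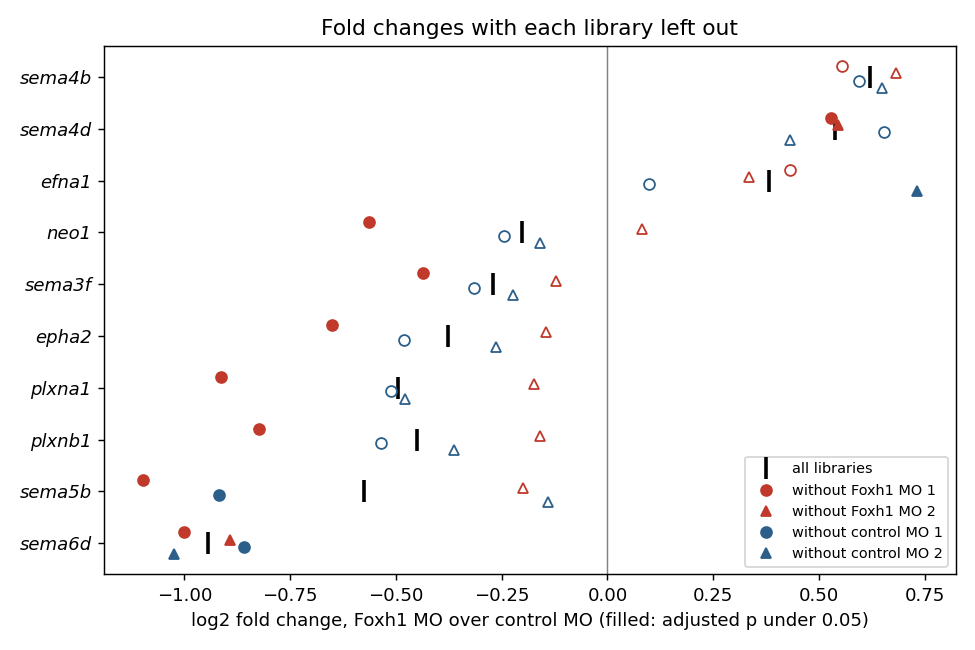
Log2 fold changes, Foxh1 MO over control MO, of 10 guidance cue genes with all libraries (black bar) and with each library left out; filled symbols have an adjusted p under 0.05. The 4 values of sema6d lie between -1.02 and -0.86, while those of plxna1, plxnb1, epha2 and neo1 move with the Foxh1 MO library left out. All 10 genes were called with every library or with a library left out, so such shifts partly reflect which genes are shown.

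A wider list of 90 intracellular transducers, partners and proteases of these pathways was examined as well. Of its genes, 83 were in the files and 73 were tested. In Foxh1 MO, 3 rose and 3 fell (8.22%, against 8.24% of all tested genes), and 67 did not pass. The median log2 fold change of the list was -0.05. The genes that rose were dpysl4, adgrl2 and arhgef12, and mmp14 and crmp1 were among those that fell.

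Among the collapsin response mediators, cytoskeletal proteins that relay semaphorin 3A signals, one rose and one fell. The gene dpysl4 had 8.43 and 11.7 CPM in Foxh1 MO, against 1.66 and 1.65 CPM in control MO (6.06-fold higher, log2 fold change 2.60, SE 0.23, edgeR adjusted p = 6.35e-05). Its relative crmp1 had 0.548 and 0.490 CPM in Foxh1 MO, against 1.82 and 2.04 CPM in control MO (3.69-fold lower, edgeR adjusted p = 0.00671). The other 3 tested relatives, dpysl2, dpysl3 and dpysl5, did not pass.

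The latrophilin gene adgrl2, which encodes an adhesion receptor, had 76.1 and 67.6 CPM in Foxh1 MO, against 34.0 and 35.4 CPM in control MO, a 2.07-fold rise (log2 fold change 1.05, SE 0.14, edgeR adjusted p = 0.000824). The gene arhgef12, whose protein binds plexin-B receptors in mammals, had 163 and 155 CPM in Foxh1 MO, against 93.9 and 89.2 CPM in control MO, a 1.74-fold rise (edgeR adjusted p = 0.00329). Its relative arhgef11 had a log2 fold change of -0.41 and did not pass (adjusted p = 0.197). The membrane metalloproteinase gene mmp14 had 9.13 and 8.18 CPM in Foxh1 MO, against 34.2 and 45.7 CPM in control MO, and fell 4.61-fold (edgeR adjusted p = 2.84e-05). The calls of these 5 genes held whichever library was left out.

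**Figure D5:**
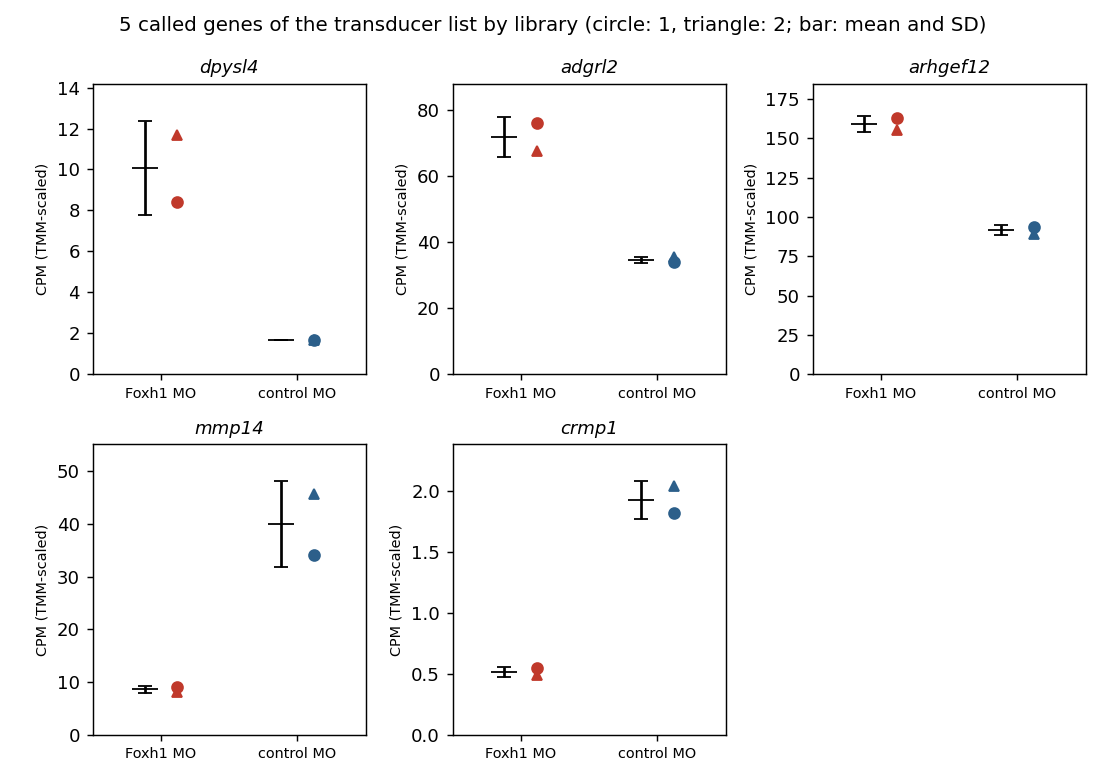
CPM of 5 called genes of the transducer list in every library, with Foxh1 MO (red) left of control MO (blue), circles for library 1, triangles for library 2, and the mean and SD in black. The genes dpysl4, adgrl2 and arhgef12 are higher in Foxh1 MO, and mmp14 and crmp1 are lower.

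The gene rac1, for a small GTPase of the actin cytoskeleton, was among the most abundant transducer genes that did not pass and had a log2 fold change of -0.11 (interval -0.39 to 0.18). The Flrt3 partner gene rnd1 stood at a mean of 139 ± 19.9 TPM in Foxh1 MO, against 155 ± 3.70 TPM in control MO (SD, n = 2 each), and did not pass.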

How the data were processed

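Each library's deposited table gave an RSEM expected count, a TPM and an abundance-weighted transcript length per gene, per the file headers. The submitters' processing notes name RSEM 1.3.3 with STAR 2.7.3a, and R 4.1.2 with edgeR 3.36.0. A genome build and a strand setting are not given in the sources used here. In addition, the authors' deposited comparison table gave log2 fold changes and log2 CPM, the F score of their test, and p-values with false discovery rates.

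Rounded expected counts were fitted by edgeR 4.0.16 under R 4.3.3 (filterByExpr with a minimum count of 10 and a minimum total of 15, TMM, quasi-likelihood F test, no covariate, 13756 genes). The SE is the absolute log2 fold change divided by the square root of F, and the 95% intervals built on it are approximate. CPM values are TMM-scaled. Log2 fold changes are Foxh1 MO minus control MO. The fit was tested on simulated data, with changes placed in genes of a mean count over 50. It recovered 42% of 1.5-fold, 78% of 2-fold and 100% of 3-fold changes. A gene that did not pass may therefore still have changed. Neighbours come from RefSeq assembly UCB_Xtro_10.0, which held 70 of the 71 symbols, and no coordinates were used.

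Genes were matched by symbol, and they and the lists were chosen with earlier results of these data known. Named genes were those called, the 2 most abundant uncalled genes of each family, uncalled genes with a log2 fold change of at least 1 and groups apart, and called and abundant transducer genes, of which some are not reported here. Others (sema6a, plxnb3, unc5a, unc50, neuropilins and similar) were chosen after their values were seen. Alternatives used DESeq2 1.42.0, limma 3.58.1, other scalings and filters, TPM, a length offset, a replicate block and left-out libraries.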

Additional observations from a re-analysis of the deposited data

How the results depend on the processing

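Of the 3 called guidance cue genes, sema6d was called lower in all 13 alternatives (log2 fold change -1.02 to -0.86). The gene sema4d was called in 8 of them and sema4b in 6, both positive throughout (0.43 to 0.65 and 0.48 to 0.68). Guidance genes called higher numbered 1 with DESeq2 (sema4d), 1 on log2(TPM + 1) (ntn4, with sema4b and sema4d lost) and 0 on log2(TPM + 0.1). With a library left out they numbered 0 to 1: sema4d without either Foxh1 MO library, efna1 without control MO 2, and none without control MO 1. Those called lower numbered 2 with upper-quartile scaling or on either TPM scale, where plxna1 was added, 3 with no filter, where plxna1 and nrp1 were, and 1 to 8 with a library left out. Of all genes, 7.17% were called with DESeq2, 9.8% and 10.5% on the TPM scales, 10.7% with upper-quartile scaling, 7.81% with no filter and 5.26% to 16.4% with a library left out.

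Transducer genes called lower were 5 with no filter, and 2 to 16 with a library left out; those called higher were then 3 to 5. Over all genes, 862 were called lower with no filter, 872 on log2(TPM + 0.1), and 337 to 1493 with a library left out, when 388 to 853 were called higher. With the lone library of a group assumed to vary like the other group, these fits rest on 3 libraries. In them, 52 to 55 of the 71 guidance genes were tested.

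The replicate numbers do not pair the samples by the labels, and deviations of equal numbers correlated at -0.0821 across genes. With the replicate block, 1 guidance gene was called higher (sema4b, with sema4d at an adjusted p of 0.0507) and 2 lower (sema6d and plxna1), with 9.05% of all genes called.

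With a library left out, the sign turned at least once for 23 of the 49 tested guidance genes (46.9%), against 37.2% of all tested genes. Among those picked by the naming rule, the log2 fold change ran from -0.45 to 0.061 for sema4a, -0.027 to 0.25 for plxnb2, -0.097 to 0.15 for robo3, -0.56 to 0.083 for neo1, -0.051 to 0.28 for rgmb and -0.21 to 0.17 for flrt3. On log2(TPM + 1) and log2(TPM + 0.1), robo3 stood at -0.013 and -0.014. The left-out fits rest on fewer libraries, and the cause of these shifts was not tested. Counts under 10 per library limit 15 of the 71 genes.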
